A study of Rattus norvegicus with 12 samples.

Results

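The Slc25 genes encode the mitochondrial carriers, and their RNA was measured in neonatal rat ventricular myocytes (NRVMs), heart muscle cells of newborn Sprague-Dawley rats in primary culture. Every row of the deposited count table whose symbol starts with Slc25a and a number was taken, leaving out Slc25a26, the gene the siRNA was aimed at, which gave 46 members among 18469 genes. There were 12 libraries in 4 groups of 3. The siNeg group received a negative control siRNA, and the siNeg.PE group received the same siRNA and, from 12 h later, phenylephrine (PE) for 36 h, an agonist of the α1-adrenergic receptor under which these cells enlarge. The siSlc25a26 group received an siRNA against Slc25a26 and no PE, and the siSlc25a26.PE group received that siRNA and PE on the same schedule. The study's methods describe digested left ventricles of newborn pups and myocytes enriched on a Percoll gradient. For these data those methods name another targeting siRNA, siNap1l5, with other times, whereas the sample labels and the design text name siSlc25a26. The labels are followed here, and what the groups called siSlc25a26 received is uncertain to that extent.

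Mitochondrial carriers are small proteins of the inner mitochondrial membrane that pass metabolites, nucleotides, cofactors and ions between the cytosol and the matrix. In heart muscle the ADP/ATP and phosphate carriers supply ATP synthase and let ATP out, while other carriers serve fatty acid oxidation, the malate-aspartate shuttle, iron delivery for haem and iron-sulphur clusters, and antioxidant defence. SLC25A26 itself carries S-adenosylmethionine.

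Total counts ranged from 24770972 to 28709049 per library, so that the detection floor of 3 counts equalled 0.0992 to 0.12 CPM (counts scaled to library size with TMM factors). The targeted gene checks the siRNA labels. Slc25a26 measured 33.2, 31.6 and 29.3 CPM in siNeg and 15.8, 14.9 and 14.7 CPM in siSlc25a26, and was lower there by edgeR (-1.08 on the log2 scale, SE 0.0798, adjusted p = 1.08e-05). Under PE it measured 113, 106 and 86.2 CPM with siNeg and 102, 106 and 98.8 CPM with siSlc25a26, and the fitted log2 difference was -0.01 (adjusted p = 0.969). The targeted gene thus goes against the label of the last group, a limit on each direction given for the libraries labelled siSlc25a26.PE. Cardiomyocyte markers (10 genes) summed to 36886 to 38666 CPM in siNeg, 59247 to 64865.5 in siNeg.PE, 35715 to 39831 in siSlc25a26 and 77687 to 83126 in siSlc25a26.PE. With PE, 4 were called higher and 0 lower in siNeg (12.4% and 8.24% of all genes were) and in siSlc25a26 (10.1% and 10.4%). With siSlc25a26, 1 was lower without PE (7.2%) and 1 higher under PE (7.71%). From siNeg to siNeg.PE mean Actc1 went from 6468 to 19858.5 CPM and Myh7 from 9455 to 17557, while Myh6 went from 6932 to 5017. Fibroblast markers (10 genes) summed to 25086 to 27856, 13356 to 13941, 14653 to 16644 and 10427 to 11537 CPM in the same order, with 6 of 10 called lower with PE in siNeg (8.24% of all genes were), 1 lower with PE in siSlc25a26 (10.4%), 7 lower with siSlc25a26 without PE (7.2%), and 4 lower and 1 higher with siSlc25a26 under PE (8.1% and 7.71%). Smooth muscle and pericyte markers (6 genes) ran from 644 to 931 CPM over all groups and endothelial markers (6 genes) from 21.9 to 29.3 CPM. Within these sums single genes moved in opposite directions. With PE, 1 smooth muscle or pericyte gene was called higher and 2 lower in siNeg, and 2 higher and 1 lower in siSlc25a26. With siSlc25a26, 1 was lower without PE, and 1 was higher and 2 lower under PE. Of 5 endothelial genes tested, 1 was lower with PE in siNeg, and 1 higher and 1 lower in siSlc25a26. The shares of all genes are those given above. In the same order of groups mean Myh11 was 59.4, 34.8, 22.6 and 18.5 CPM and Cspg4 201, 202, 200 and 432. Immune markers (8 genes) summed to 23.8 to 29.7, 12.3 to 14.2, 15.2 to 16.2 and 12.2 to 14.6 CPM in the order above. Of 5 tested, 4 were lower with PE in siNeg (8.24% of all genes were) and 3 with siSlc25a26 without PE (7.2%). In each group 1 or 2 of the immune genes were at 0. In bulk RNA fewer cells of a type and less RNA per cell cannot be told apart, and the part of these markers in the carriers' results was not tested.

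A few carriers made up most of the family's RNA. On the FPKM scale, which divides by gene length and so allows genes to be compared, Slc25a4 (ADP/ATP carrier 1, the heart and muscle form) held 36.6% of the family's summed level over all libraries, Slc25a3 (the phosphate carrier) 31.6%, Slc25a5 (ADP/ATP carrier 2) 11.0% and Slc25a11 (the oxoglutarate/malate carrier) 4.85%. In siNeg, Slc25a4 stood at 1445 ± 63.2 FPKM, Slc25a3 at 1215 ± 32.5, Slc25a5 at 353 ± 19.2 and Slc25a11 at 181 ± 10.1 (SD, n = 3), levels that did not overlap. Next came Slc25a20 (the carnitine/acylcarnitine carrier) at 76.8 ± 6.40, Slc25a23 (an ATP-Mg/phosphate carrier) at 70.2 ± 2.87 and Slc25a39 (a glutathione carrier) at 64.5 ± 1.90 FPKM. At the low end, 39 members had 3 or more counts in all 12 libraries. The other 7 (Slc25a2, Slc25a18, Slc25a47, Slc25a48, Slc25a52, Slc25a53 and Slc25a54) did not, never exceeded 13 counts in a library and were tested in no comparison. Slc25a36l1, at 4 to 13 counts, passed the filter only in the fit over all libraries, which left 38 members tested in every comparison. Slc25a31, the testis form of the ADP/ATP carrier, was not analysed here.

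The summed level of the family was lower in both groups with siSlc25a26. It was 3626.5, 3821 and 3685 FPKM in the siNeg libraries, 3911, 3787 and 3759 in siNeg.PE, 2991, 3083 and 3007 in siSlc25a26 and 2937, 2796 and 2710.4 in siSlc25a26.PE, so that no library with siSlc25a26 reached the lowest library with siNeg. As a share of all FPKM of a library, the family held 0.628% ± 0.0174 in siNeg, 0.642% ± 0.0129 in siNeg.PE, 0.539% ± 0.00659 in siSlc25a26 and 0.497% ± 0.0115 in siSlc25a26.PE (SD, n = 3). Slc25a4 went from 1445 ± 63.2 FPKM in siNeg to 1039 ± 26.4 in siSlc25a26 and Slc25a3 from 1215 ± 32.5 to 909.6 ± 7.74, as the plot of the family's level by library shows. On summed CPM the family held 4830 to 5050 in siNeg, 5061 to 5428 in siNeg.PE, 4045 to 4187 in siSlc25a26 and 3986 to 4416 in siSlc25a26.PE. There siSlc25a26 and siSlc25a26.PE overlapped, so the lower FPKM of siSlc25a26.PE depends on the scale. The sums mostly follow the abundant members, as Slc25a4 held 36.6% and Slc25a3 31.6% of the family's FPKM over all libraries. They do not stand for each member. With siSlc25a26 and no PE, edgeR called 6 members higher and 0 lower (8.92% and 7.2% of all genes were). Under PE it called 4 higher and 2 lower (7.71% and 8.1%). These sums are descriptions and were not tested.

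**Figure D1:**
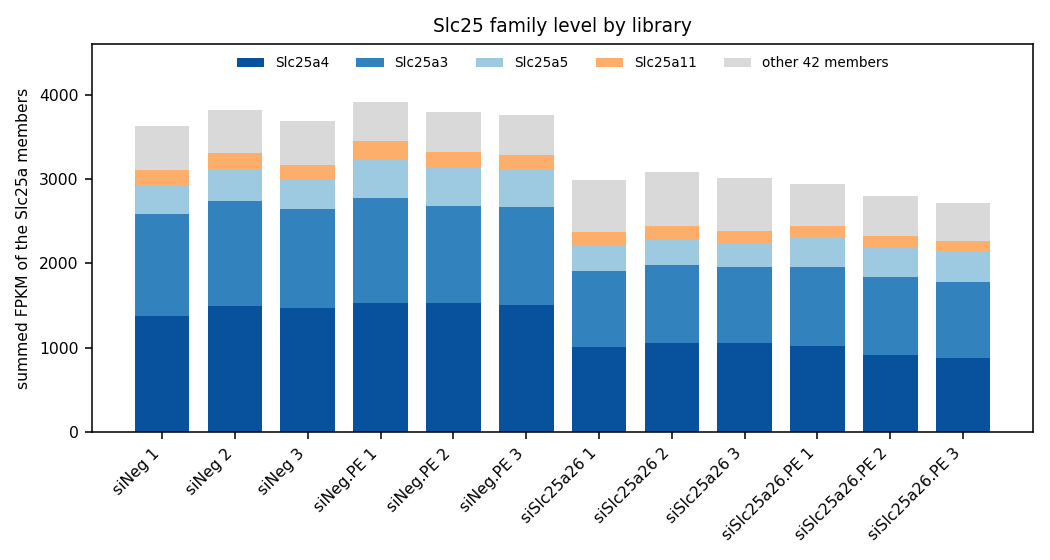
Summed FPKM of the Slc25a members in each of the 12 libraries (bars, starting at 0), divided into Slc25a4, Slc25a3, Slc25a5, Slc25a11 and all other members. The siNeg and siNeg.PE bars reach 3626.5 to 3911 FPKM and the siSlc25a26 and siSlc25a26.PE bars 2710.4 to 3083 FPKM.

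Each gene was tested over the whole table with edgeR's quasi-likelihood test and called at a fold change above 1.5 with an adjusted p-value under 0.05. PE in siNeg raised 2 members (Slc25a37 and Slc25a46) and lowered 2 (Slc25a34 and Slc25a42) of 38, where 12.4% of all 13719 genes were called higher and 8.24% lower. There, 8 members were higher and 6 lower at an adjusted p under 0.05 whatever their fold, against 25.2% and 24.3% of all genes. PE in siSlc25a26 raised 1 member (Slc25a37) and lowered 5 (Slc25a10, Slc25a23, Slc25a28, Slc25a34 and Slc25a42), beside 10.1% and 10.4% of all genes, and 7 members were higher and 9 lower at an adjusted p under 0.05 whatever their fold, against 26.4% and 26% of all genes. In either direction these were 10.5% and 15.8% of the members, below the 20.7% and 20.5% of all genes called. The median log2 fold change of the members was 0.02 with PE in siNeg and -0.013 in siSlc25a26, beside 0.00016 and -0.0036 over all genes.

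With siSlc25a26 and no PE, 6 members were higher than in siNeg (Slc25a16, Slc25a23, Slc25a28, Slc25a37, Slc25a39 and Slc25a43) and 0 lower, beside 8.92% and 7.2% of all genes, and 8 members were higher and 8 lower at an adjusted p under 0.05 whatever their fold, against 23.3% and 21.7% of all genes. By edgeR 10 members were lower there at an unadjusted p under 0.05. The share of all genes at that p was not counted, so these 10 are no result about the family. DESeq2 and limma-voom also called 0 lower. Under PE, 4 members were higher in the libraries labelled siSlc25a26.PE (Slc25a28, Slc25a37, Slc25a39 and Slc25a43) and 2 lower (Slc25a4 and Slc25a29), beside 7.71% and 8.1% of all genes, and 8 members were higher and 12 lower at an adjusted p under 0.05 whatever their fold, against 20.1% and 20.1% of all genes. In either direction the members' shares of 15.8% and 15.8% were near the 16.1% and 15.8% of all genes. Their median log2 fold changes were 0.075 and -0.085, beside 0.015 and -0.0028 over all genes. In all, 12 members were called at least once and 26 of those tested throughout were not. No called pair of groups overlapped, which adds no support, since the calls were made on these same libraries. Uncalled members such as Slc25a5 and Slc25a13 did not overlap in any of the 4 comparisons either. The share of all genes without overlap was not counted. An exact two-sided permutation test of 3 against 3 libraries cannot go below p = 0.1. Comparisons with a group in common share its libraries. Among the called members the estimated counts were not whole in most or all libraries for Slc25a10 (12 of 12), Slc25a16 (10 of 12) and Slc25a34 (10 of 12), whose levels are uncertain to that extent.

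**Figure D2:**
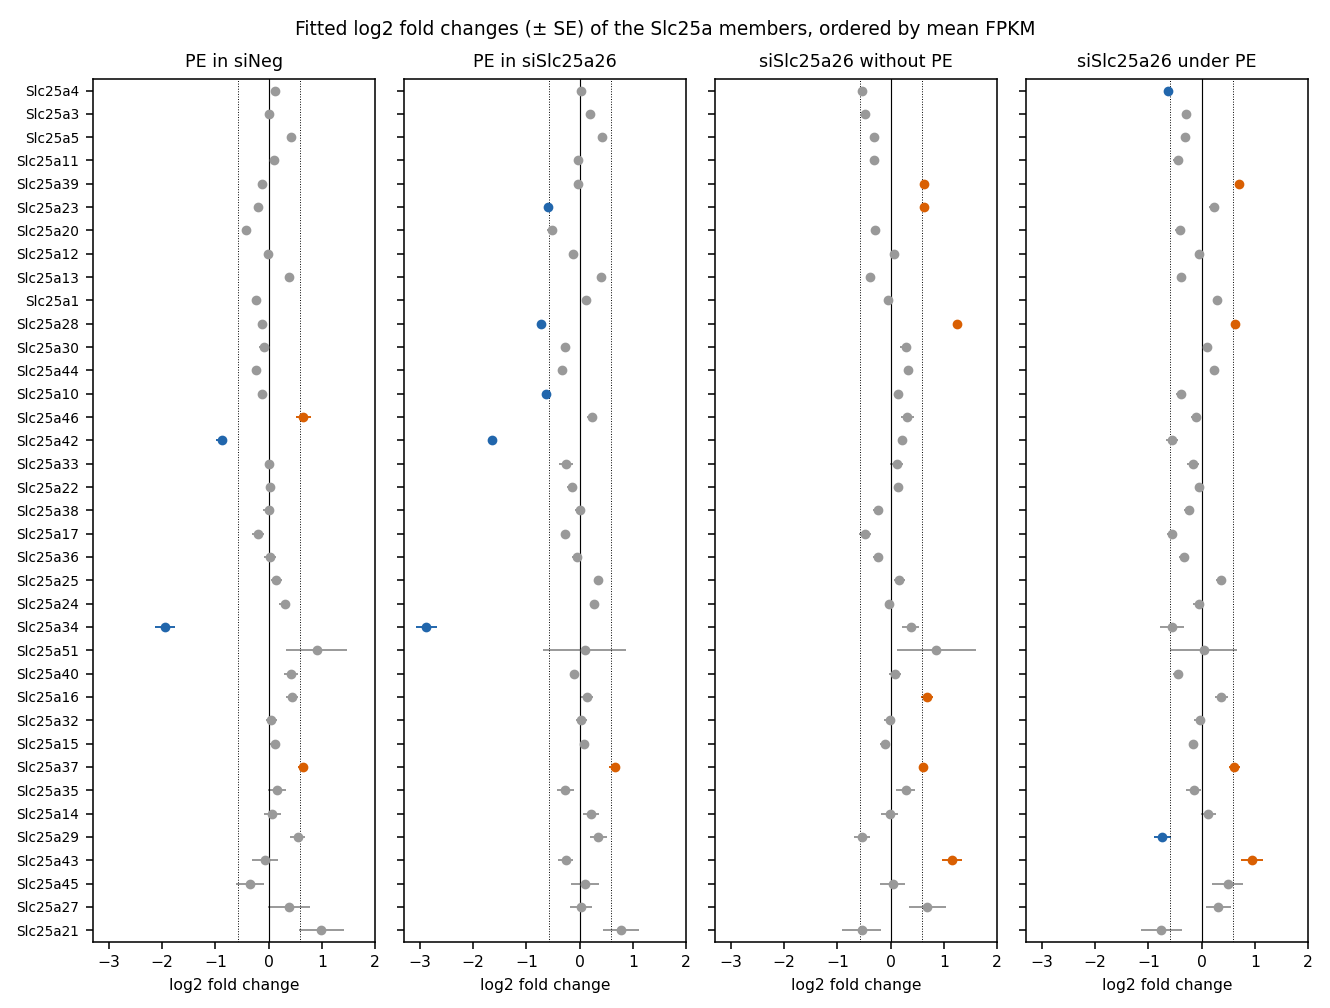
Fitted log2 fold changes (points) with their SE (bars) of 37 of the 38 members tested in every comparison, ordered by mean FPKM, with a panel for each of 4 comparisons. Dotted lines mark a 1.5-fold change, orange marks members called higher, blue members called lower and grey the rest; Slc25a34 under PE has the lowest values, -1.95 and -2.88.

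The carriers that serve ATP synthase were lower with siSlc25a26, mostly by less than 1.5-fold. Slc25a4, which exchanges cytosolic ADP for matrix ATP, measured 1627, 1765 and 1737 CPM in siNeg, 1915, 1890.2 and 1815 in siNeg.PE, 1162, 1213 and 1226 in siSlc25a26 and 1339, 1185 and 1126 in siSlc25a26.PE. Both groups with siSlc25a26 lay below both groups with siNeg. Under PE it fell past the threshold, with a log2 fold change of -0.63 (SE 0.0760, adjusted p = 0.000271), and without PE its value was -0.54 (SE 0.0535, adjusted p = 7.48e-05), inside the 1.5-fold line. The call rested on siSlc25a26.PE replicate 3, without which the value was -0.57. For PE itself Slc25a4 had 0.12 (adjusted p = 0.0965) in siNeg and 0.03 (adjusted p = 0.732) in siSlc25a26.

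Slc25a3, which brings in phosphate for ATP synthesis, measured 1508, 1545 and 1471 CPM in siNeg and 1092, 1107 and 1111 CPM in siSlc25a26, a log2 fold change of -0.48 (SE 0.0481, adjusted p = 8.01e-05). Under PE its value was -0.29 (adjusted p = 0.0101). Slc25a5, the ADP/ATP carrier of many dividing cells, measured 374, 410.2 and 377 CPM in siNeg, 543, 532 and 488 in siNeg.PE, 324, 330.4 and 301 in siSlc25a26 and 426, 417 and 425 in siSlc25a26.PE. With either siRNA its PE libraries all lay above those without PE. The PE values of Slc25a5 were 0.42 (adjusted p = 0.000923) in siNeg and 0.42 (adjusted p = 0.000148) in siSlc25a26, and its siSlc25a26 values -0.31 (adjusted p = 0.00307) without PE and -0.31 (adjusted p = 0.00504) under PE, all inside 1.5-fold. RefSeq lists pseudogenes of Slc25a5, and its estimated counts were not whole in any of the 12 libraries, so its level is uncertain.

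The largest called changes with PE were decreases of Slc25a34 and Slc25a42. Slc25a34, an orphan carrier, measured 20.4, 14.8 and 16.9 CPM in siNeg and 3.70, 4.16 and 5.75 CPM in siNeg.PE, a log2 fold change of -1.95 (SE 0.190, adjusted p = 0.000146). With siSlc25a26 it measured 24.0, 27.0 and 18.0 CPM without PE and 3.74, 3.26 and 2.28 CPM with PE, a log2 fold change of -2.88 (SE 0.197, adjusted p = 4.87e-06). Every PE library lay below every library without PE. The difference between the PE effects on Slc25a34, -0.95, did not pass (SE 0.299, adjusted p = 0.0591). That call depended on the processing: the difference for Slc25a34 passed with DESeq2 (-0.93, adjusted p = 0.0162), on log2(FPKM + 1) (-0.78, limma adjusted p = 0.043) and on log2(FPKM + 0.1) (-1.02, limma adjusted p = 0.0423). It also passed without siNeg.PE replicate 1 (-1.08), siSlc25a26.PE replicate 1 (-1.12) or siSlc25a26 replicate 3 (-1.10). Slc25a42, which carries coenzyme A, measured 40.2, 38.9 and 41.2 CPM in siNeg and 20.97, 19.6 and 25.5 CPM in siNeg.PE, a log2 fold change of -0.88 (SE 0.103, adjusted p = 0.000352). With siSlc25a26 Slc25a42 measured 47.4, 49.3 and 45.9 CPM without PE and 16.2, 14.6 and 14.3 CPM with PE, a log2 fold change of -1.65 (SE 0.0711, adjusted p = 3.5e-07). These calls of Slc25a34 and Slc25a42 were kept under every alternative run. Slc25a16, linked to mitochondrial coenzyme A, measured 8.55, 10.1 and 10.8 CPM in siNeg and 15.4, 17.8 and 14.9 CPM in siSlc25a26, a log2 fold change of 0.68 (SE 0.113, adjusted p = 0.00133).

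**Figure D3:**
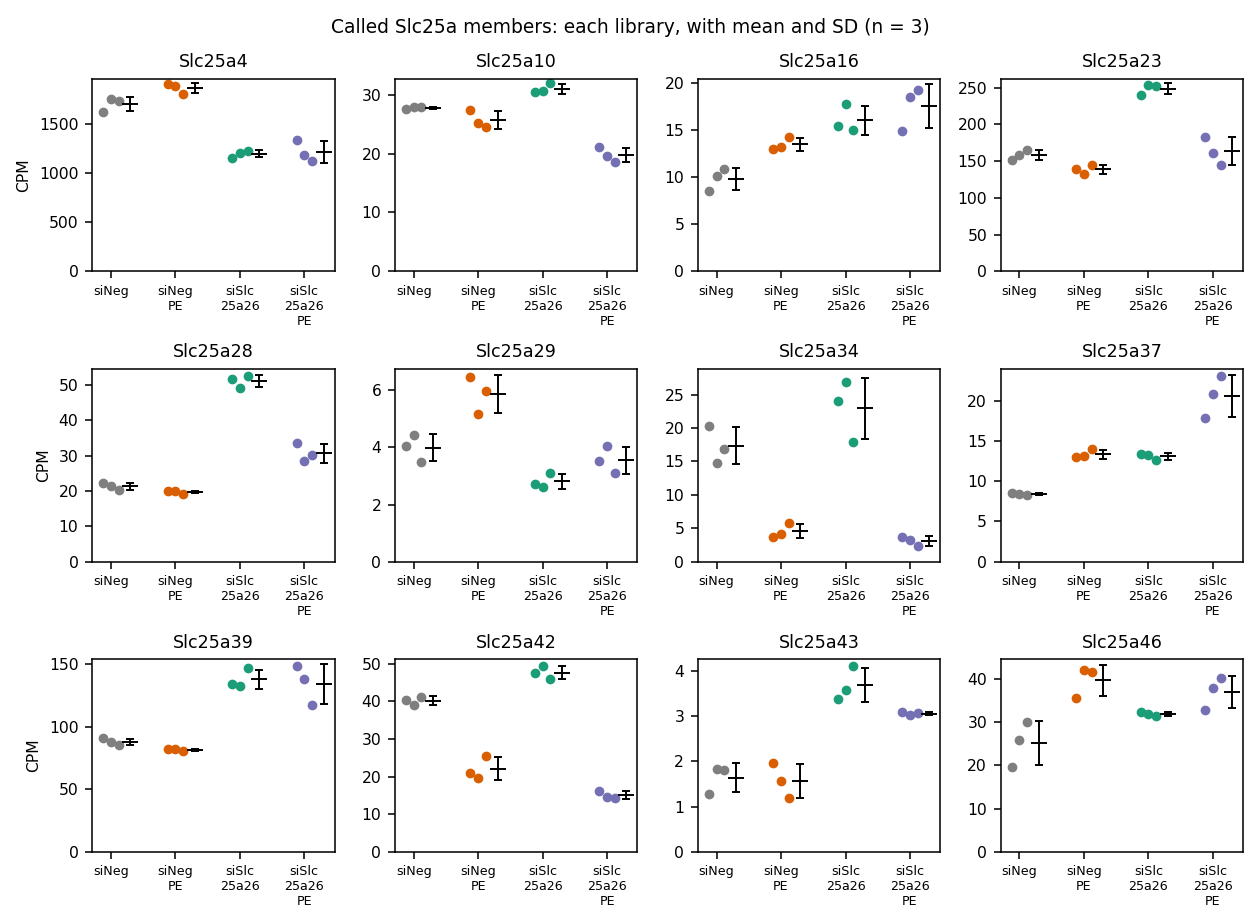
CPM of the 12 members called in at least 1 comparison, in each library (points, 3 per group) with the group mean and SD (bars). Slc25a34 and Slc25a42 are lower in both PE groups, Slc25a28, Slc25a39 and Slc25a43 are higher in both siSlc25a26 groups, and Slc25a37 is lowest in siNeg and highest in siSlc25a26.PE.

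The promoters of 4 members with clear changes are shown so that their sequence can be read beside the values. RefSeq entries of build GRCr8, a later build than the Rnor_6.0 of the submitters' processing notes, gave 39 windows of the 250 bases before the start for 37 of the 46 members, and none for Slc25a37 and Slc25a46 among the other 9. Slc25a34 (chr5:159219893-159220142, minus strand) and Slc25a42 (chr16:19247724-19247973, plus strand) fell with PE, and Slc25a28 (chr1:252491343-252491592, minus strand) and Slc25a39 (chr10:87866974-87867223, minus strand) were higher with siSlc25a26. Each is written 5′ to 3′ with CpG dinucleotides in capitals.
Slc25a34: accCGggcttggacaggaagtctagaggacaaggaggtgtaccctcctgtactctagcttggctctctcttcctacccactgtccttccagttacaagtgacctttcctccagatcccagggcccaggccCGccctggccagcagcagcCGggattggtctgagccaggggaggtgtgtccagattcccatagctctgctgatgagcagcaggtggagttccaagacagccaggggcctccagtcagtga
Slc25a42: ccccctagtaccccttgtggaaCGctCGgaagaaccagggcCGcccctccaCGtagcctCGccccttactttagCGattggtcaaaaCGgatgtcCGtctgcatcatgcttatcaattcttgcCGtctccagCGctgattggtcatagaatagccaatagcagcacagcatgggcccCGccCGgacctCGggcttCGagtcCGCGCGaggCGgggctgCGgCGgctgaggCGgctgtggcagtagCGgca
Slc25a28: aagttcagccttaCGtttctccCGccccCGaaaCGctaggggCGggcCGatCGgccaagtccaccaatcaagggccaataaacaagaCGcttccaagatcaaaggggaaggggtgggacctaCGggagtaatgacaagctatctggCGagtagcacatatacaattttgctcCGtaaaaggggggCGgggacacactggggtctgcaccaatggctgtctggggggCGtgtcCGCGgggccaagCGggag
Slc25a39: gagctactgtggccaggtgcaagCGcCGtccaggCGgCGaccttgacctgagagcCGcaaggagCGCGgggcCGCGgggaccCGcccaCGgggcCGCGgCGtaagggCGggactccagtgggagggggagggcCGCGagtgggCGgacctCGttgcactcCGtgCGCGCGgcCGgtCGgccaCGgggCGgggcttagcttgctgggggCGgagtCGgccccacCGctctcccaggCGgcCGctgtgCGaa

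The Slc25a34 window held 3 CpG dinucleotides, and 28.6% of all 33469 rat windows of that length held fewer. The Slc25a42 window held 22 (86.3% held fewer), the Slc25a28 window 16 (76.2%) and the Slc25a39 window 33 (96.4%), beside a median of 13 over the members' windows and 5 over all. The 2 members that fell most with PE therefore differed in CpG content. Both strands were searched for the E-box CACGTG, the ERR element TCAAGGTCA, the amino acid response element TGATGNAA and the interferon-stimulated response element, GAAA and GAAA with 2 free bases between. The E-box was in 3 members' windows (Slc25a2, Slc25a33 and Slc25a48), beside 5.59% of all windows. The other motifs were in 0, beside 0.388%, 3.4% and 3.41% of all windows in the order named. A match or its absence says only whether these letters are in the window.

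Both mitoferrins, which bring iron into the matrix, were higher with siSlc25a26. Slc25a37 (mitoferrin-1) measured 8.59, 8.47 and 8.26 CPM in siNeg and 13.0, 13.1 and 14.0 CPM in siNeg.PE, a log2 fold change of 0.65 (SE 0.0914, adjusted p = 0.000832). In siSlc25a26 Slc25a37 measured 13.4, 13.3 and 12.6 CPM, a log2 fold change of 0.61 (SE 0.0846, adjusted p = 0.000513) against siNeg, and in siSlc25a26.PE 17.9, 20.8 and 23.1 CPM, above all other libraries. The PE effect in siSlc25a26 was 0.66 (SE 0.103, adjusted p = 0.000668) and the siRNA effect under PE 0.62 (SE 0.110, adjusted p = 0.00226), so each of the 4 changes lay close to the 1.5-fold line. On log2(FPKM + 1) none of the 4 passed, at 0.37 to 0.46. Without siSlc25a26.PE replicate 3 the PE effect on Slc25a37 in siSlc25a26 was 0.57 and the siRNA effect under PE 0.53, and without siNeg replicate 3 the siRNA effect without PE was 0.57.

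Slc25a28 (mitoferrin-2) had the largest fitted increase of the family with siSlc25a26 without PE, while under PE Slc25a43 and Slc25a39 had larger ones. It measured 22.1, 21.5 and 20.2 CPM in siNeg and 51.7, 49.2 and 52.5 CPM in siSlc25a26, a log2 fold change of 1.24 (SE 0.0659, adjusted p = 1.14e-06). Under PE it measured 19.9, 19.9 and 19.2 CPM with siNeg and 33.6, 28.4 and 30.1 CPM with siSlc25a26, a log2 fold change of 0.63 (SE 0.0830, adjusted p = 0.000445). The PE effect on Slc25a28 was -0.13 (adjusted p = 0.183) in siNeg and -0.73 (SE 0.0742, adjusted p = 5.44e-05) in siSlc25a26, and the difference of -0.62 passed (SE 0.0990, adjusted p = 0.00223). Its increase under PE was 0.57 without siSlc25a26.PE replicate 1 and 0.51 on log2(FPKM + 1), and the difference -0.57 without siSlc25a26.PE replicate 2, each inside 1.5-fold.

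The glutathione carrier Slc25a39 was higher with siSlc25a26 in both PE states. It measured 90.8, 87.8 and 85.6 CPM in siNeg, 82.3, 82.0 and 80.8 in siNeg.PE, 134, 133 and 147 in siSlc25a26 and 149, 138 and 117 in siSlc25a26.PE, and no library with siNeg reached the lowest with siSlc25a26. The log2 fold change was 0.62 without PE (SE 0.0574, adjusted p = 4.42e-05) and 0.71 under PE (SE 0.0833, adjusted p = 0.000244). Without siNeg replicate 3 or siSlc25a26 replicate 3 the former was 0.58 or 0.57. For its relative Slc25a40 the values were 0.08 (adjusted p = 0.595) without PE and -0.44 (adjusted p = 0.00696) under PE, the latter inside 1.5-fold. The PE effect on Slc25a40 was 0.42 in siNeg and -0.10 in siSlc25a26, and the difference of -0.54 had an adjusted p of 0.0402.

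Among the carriers of fuels and Krebs cycle intermediates, Slc25a10 was the one called. Slc25a20, which exchanges acylcarnitine for carnitine in fatty acid oxidation, measured 131, 113 and 133 CPM in siNeg, 92.1, 94.2 and 98.1 in siNeg.PE, 105, 108 and 98.0 in siSlc25a26 and 82.5, 66.0 and 66.2 in siSlc25a26.PE, its lowest group. Its PE values were -0.42 (adjusted p = 0.00223) in siNeg and -0.53 (adjusted p = 0.00101) in siSlc25a26, both inside 1.5-fold. The latter was called on log2(FPKM + 1) (-0.69), on log2(FPKM + 0.1) (-0.71) and without siSlc25a26.PE replicate 1 (-0.64). Slc25a10, the dicarboxylate carrier, measured 30.4, 30.6 and 32.0 CPM in siSlc25a26 and 21.1, 19.6 and 18.7 CPM in siSlc25a26.PE, a log2 fold change of -0.64 (SE 0.0693, adjusted p = 7.99e-05). In siNeg its PE value was -0.12 (adjusted p = 0.161), and the difference between these effects was -0.54 (adjusted p = 0.00345). Slc25a11, the oxoglutarate carrier of the malate-aspartate shuttle, measured 230.4, 241 and 217 CPM in siNeg and 189, 191 and 185 CPM in siSlc25a26, with values of -0.31 (adjusted p = 0.00183) without PE and -0.45 (adjusted p = 0.00225) under PE. Slc25a1, the citrate carrier, stayed within 34.4 to 49.0 CPM in all libraries and was called in no comparison.

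Among the ATP-Mg/phosphate carriers, which adjust the adenine nucleotide content of the matrix, Slc25a23 was called. It measured 152, 159 and 166 CPM in siNeg and 239.7, 253 and 252 CPM in siSlc25a26, a log2 fold change of 0.62 (SE 0.0505, adjusted p = 2.04e-05). With PE and siSlc25a26 it measured 183, 162 and 145 CPM, a log2 fold change of -0.60 (SE 0.0776, adjusted p = 0.000239) from siSlc25a26, next to the threshold. Leaving out siSlc25a26.PE replicate 2, siSlc25a26.PE replicate 3 or siSlc25a26 replicate 2 gave Slc25a23 values of -0.58, -0.52 and -0.58, none of them past 1.5-fold. Slc25a24 and Slc25a25 were not called, with PE values of 0.30 and 0.14 in siNeg and 0.27 and 0.34 in siSlc25a26.

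Of the amino acid carriers Slc25a29, which carries basic amino acids, was called. It measured 6.49, 5.17 and 5.99 CPM in siNeg.PE and 3.51, 4.05 and 3.09 CPM in siSlc25a26.PE, a log2 fold change of -0.74 (SE 0.154, adjusted p = 0.00509). On log2(FPKM + 1) that value was -0.57. Without PE the siSlc25a26 value of Slc25a29 was -0.53 (adjusted p = 0.0196), inside 1.5-fold. Its PE values were 0.54 (adjusted p = 0.0149) in siNeg and 0.35 (adjusted p = 0.0971) in siSlc25a26. The difference between these effects, -0.22, did not pass (adjusted p = 0.535). The aspartate/glutamate carriers of the malate-aspartate shuttle differed in their values. Slc25a12 stayed within 97.5 to 116 CPM in all libraries. Slc25a13 measured 85.3, 88.6 and 92.7 CPM in siNeg, 121, 113 and 116 in siNeg.PE, 68.7, 66.5 and 71.8 in siSlc25a26 and 90.2, 88.2 and 92.4 in siSlc25a26.PE. The PE values of Slc25a13 were 0.38 (adjusted p = 0.000877) and 0.40 (adjusted p = 0.000302) and its siSlc25a26 values -0.39 (adjusted p = 0.000525) and -0.38 (adjusted p = 0.00139), all inside 1.5-fold. Slc25a44, a branched-chain amino acid carrier, had -0.25 and -0.33 for PE and 0.33 and 0.23 for siSlc25a26, also inside it.

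The carriers of pyrimidine nucleotides and folate were not called. Slc25a32, the folate and FAD carrier, stayed within 8.10 to 10.03 CPM, Slc25a33, a pyrimidine nucleotide carrier, within 11.4 to 18.2 CPM and Slc25a36, another pyrimidine nucleotide carrier, within 32.3 to 50.1 CPM in all libraries. Slc25a36 had -0.33 (adjusted p = 0.0217) for siSlc25a26 under PE, inside 1.5-fold. Slc25a43, an orphan carrier, measured 1.27, 1.83 and 1.81 CPM in siNeg and 3.37, 3.57 and 4.10 CPM in siSlc25a26, a log2 fold change of 1.14 (SE 0.186, adjusted p = 0.00123). Under PE it measured 1.95, 1.56 and 1.20 CPM with siNeg and 3.08, 3.02 and 3.05 CPM with siSlc25a26, a log2 fold change of 0.95 (SE 0.209, adjusted p = 0.00671), or 0.41 on log2(FPKM + 1), a scale that understates changes at low levels. Slc25a46, an outer membrane relative that acts in mitochondrial fission, measured 19.7, 25.97 and 30.0 CPM in siNeg and 35.6, 42.1 and 41.6 CPM in siNeg.PE, a log2 fold change of 0.65 (SE 0.143, adjusted p = 0.0067). That call rested on siNeg replicate 1, without which the value was 0.51. Slc25a14, Slc25a27 and Slc25a30, related to the uncoupling proteins, and Slc25a17, the peroxisomal cofactor carrier, were not called in any comparison. The same holds for Slc25a15, Slc25a21, Slc25a22, Slc25a35, Slc25a38 and Slc25a45, of which Slc25a21 had fitted PE values of 0.98 (adjusted p = 0.0838) in siNeg and 0.77 (adjusted p = 0.0797) in siSlc25a26 at 0.278 to 2.24 CPM. Slc25a17 had siSlc25a26 values of -0.49 (adjusted p = 0.00633) without PE and -0.56 (adjusted p = 0.00132) under PE, both inside 1.5-fold. Its estimated counts were not whole in any of the 12 libraries.

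Whether PE acted differently with siSlc25a26 was tested over all 12 libraries. Of 39 members tested, 0 had a higher and 2 a lower PE effect in siSlc25a26 by more than 1.5-fold (Slc25a28 and Slc25a42), beside 2.16% and 3.34% of all genes, or 5.5% in either direction. By edgeR 2 members were higher at an unadjusted p under 0.05, for which the share of all genes was not counted. DESeq2 and limma-voom also called 0 higher. Whatever the fold, 0 were higher and 5 lower at an adjusted p under 0.05, beside 5.48% and 5.73% of all genes. For Slc25a42 the difference was -0.80 (SE 0.125, adjusted p = 0.0021), between effects of -0.88 and -1.65. The other 3, Slc25a10, Slc25a23 and Slc25a40, differed by less than 1.5-fold. The median difference was -0.13 over the members and -0.045 over all genes.

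**Figure D4:**
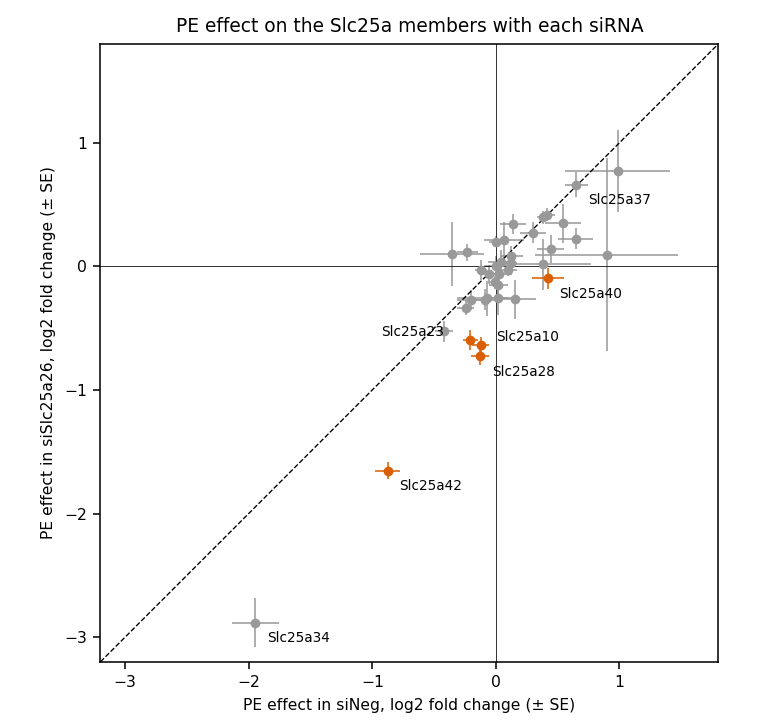
Log2 fold change of PE in siNeg (horizontal axis) against that in siSlc25a26 (vertical axis) for the 38 members tested in both, with SE bars; the dashed line marks equal effects and orange the 5 members whose difference had an adjusted p under 0.05. All 5 lie below the line, Slc25a42 at -0.88 and -1.65, while Slc25a37 lies at 0.65 and 0.66.

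The row of the NAD carrier Slc25a51 varied widely between replicates. That row (NCBI Gene 100909697) held 423, 201 and 495 estimated counts in siNeg, 974, 857 and 146 in siNeg.PE, 196, 1840.4 and 245 in siSlc25a26 and 889, 934 and 240.2 in siSlc25a26.PE. The table also has a row Mcart1 (NCBI Gene 313241), a gene that RefSeq names Slc25a51, and it was looked up after the values of Slc25a51 had been seen. Mcart1 held 1603, 1804 and 1856 estimated counts in siNeg, 1065, 1393 and 2220.0 in siNeg.PE, 2753, 1306 and 2752 in siSlc25a26 and 1416, 1398 and 2219 in siSlc25a26.PE. Their sum was steadier, at 2005 to 2351 in siNeg, 2039 to 2366 in siNeg.PE, 2949 to 3147 in siSlc25a26 and 2305 to 2459 in siSlc25a26.PE, while the share in the Slc25a51 row ran from 6.19% to 58.5%. For siSlc25a26 without PE, the Slc25a51 row alone had a log2 fold change of 0.86 (SE 0.741, adjusted p = 0.374) and the summed rows 0.36 (SE 0.0637, adjusted p = 0.00196), the latter inside 1.5-fold. The summed rows, an alternative chosen after seeing the data, gave 0.14 (SE 0.0844, adjusted p = 0.193) for PE in siNeg, -0.14 (SE 0.0501, adjusted p = 0.0384) for PE in siSlc25a26 and 0.07 (SE 0.0681, adjusted p = 0.451) for siSlc25a26 under PE. How the counting assigned reads to these rows was not tested.

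**Figure D5:**
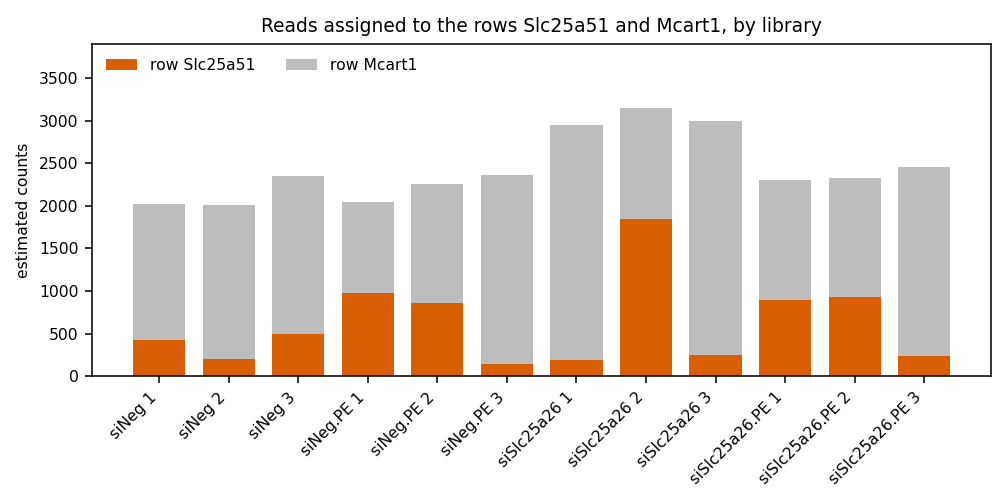
Estimated counts of the rows Slc25a51 and Mcart1, stacked from 0 in each of the 12 libraries. The Slc25a51 share runs from 6.19% to 58.5% while the stacked total stays between 2005 and 3147.

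Carriers enter through the outer membrane receptor TOMM70 and are inserted by the TIM22 complex. Of 13 import genes tested, PE in siSlc25a26 raised 4, Tomm40 (0.63), Tomm70 (0.61), Timm8a1 (0.76) and Agk (0.77, log2 fold changes), beside 10.1% of all genes, and 0 were called in each of the other comparisons. Those 4 rest on the libraries labelled siSlc25a26.PE. With PE in siNeg the same genes were also higher, inside 1.5-fold. There Tomm40 had 0.28 (edgeR adjusted p = 0.035), Tomm70 0.47 (0.0046), Timm8a1 0.44 (0.00242) and Agk 0.57 (0.00139). As 0 import genes were called for the difference between the PE effects, the rise is not shown to be particular to siSlc25a26. Among other mitochondrial transporters, Mpc1 of the pyruvate carrier rose by 0.74 on the log2 scale with PE in siSlc25a26, where 10.1% of all genes were called higher. This call too rests on the libraries labelled siSlc25a26.PE. With PE in siNeg Mpc1 had 0.32 (edgeR adjusted p = 0.0488), inside 1.5-fold. For the difference between the PE effects 0 of 11 such transporters tested were called (5.5% of all genes were), so the rise of Mpc1 is not shown to be particular to siSlc25a26 either. Sfxn5, a sideroflexin, was lower with siSlc25a26 without PE (-1.14, SE 0.225, adjusted p = 0.00338). The relatives under other symbols, of which 3 were tested (Ucp2, Mtch1 and Mtch2), were called in no comparison.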

How the data were processed

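The authors deposited estimated counts per gene, of which 20.8% to 21.9% of values per library were not whole, and FPKM, which divides by gene length and library total. The submitters' processing notes name HISAT, Bowtie2 and Rnor_6.0; the counting program, annotation and strandedness are not given in the sources used here. Groups came from the sample labels, whose siRNA, transfection time and PE time differ from those in the paper's methods. The series' design text calls the replicates independent biological samples.

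The estimated counts were rounded and tested with edgeR 4.0.16 (TMM, filterByExpr, quasi-likelihood F-test, Benjamini-Hochberg adjustment over all genes) in R 4.3.3. Each fit used the 6 libraries compared, the difference between PE effects all 12. No replicates agreed within sampling noise (chi-square per gene 5.52 or more). By gene ID 45 of 46 members matched RefSeq. The naming rule took every called member, the abundant carriers and carriers fixed by function; carriers named beyond it were chosen after their values were seen. Members, lists and motifs were chosen with earlier results of these data known. Alternatives were DESeq2 1.42.0, limma 3.58.1 (voom, log2(FPKM + 1), log2(FPKM + 0.1)), other size factors and filters, a joint fit, a replicate block, no fold threshold and leaving out each library. The procedure was tested on simulated data. A few genes are not reported here.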

Additional observations from a re-analysis of the deposited data

Results flagged for a closer look

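In 5 members the PE effect differed between the siRNAs by edgeR's interaction test (adjusted p under 0.05), and each effect was lower in siSlc25a26. The difference for Slc25a10 was -0.54 on the log2 scale (adjusted p = 0.00345), from PE effects of -0.12 in siNeg and -0.64 in siSlc25a26. The difference for Slc25a42 was -0.80 on the log2 scale (adjusted p = 0.0021), from PE effects of -0.88 in siNeg and -1.65 in siSlc25a26. The difference for Slc25a40 was -0.54 on the log2 scale (adjusted p = 0.0402), from PE effects of 0.42 in siNeg and -0.10 in siSlc25a26. The difference for Slc25a23 was -0.41 on the log2 scale (adjusted p = 0.0257), from PE effects of -0.21 in siNeg and -0.60 in siSlc25a26. The difference for Slc25a28 was -0.62 on the log2 scale (adjusted p = 0.00223), from PE effects of -0.13 in siNeg and -0.73 in siSlc25a26. All of them rest on the libraries labelled siSlc25a26.PE, in which Slc25a26 was not lower than in siNeg.PE.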

How the results depend on the processing

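Of the 24 calls of a member in a comparison, 24 kept their direction under every alternative run and 12 also kept the call. DESeq2, limma-voom, DESeq2's size factors, both count filters and the joint fit left each count of called members within 1.5 times. Without the fold threshold the counts were 8 higher and 6 lower for PE in siNeg, 7 and 9 for PE in siSlc25a26, 8 lower for siSlc25a26 without PE, 8 higher and 12 lower for siSlc25a26 under PE and 5 lower for the difference, by construction. On log2(FPKM + 1) and log2(FPKM + 0.1), 0 and 1 members were higher for PE in siNeg, 0 and 0 for PE in siSlc25a26, 1 and 2 higher and 1 and 4 lower for siSlc25a26 under PE, and 4 and 5 lower for the difference; the cause was not tested. On those scales the median of all genes moved to -0.125 and -0.171 for PE in siSlc25a26 and to -0.109 and -0.143 for the difference. Calls over all genes moved as well. Those higher went from 1708 to 857 and 1423 of 13719 for PE in siNeg and from 1389 to 564 and 824 of 13776 for PE in siSlc25a26. Under PE they went from 1054 to 623 and 881 higher and from 1108 to 756 and 1300 lower of 13671. For the difference, those lower went from 471 to 538 and 768 of 14097.

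With a library left out, members called higher and lower ranged from 1 to 4 and 2 to 2 for PE in siNeg, 0 to 2 and 4 to 6 for PE in siSlc25a26, 5 to 6 and 0 to 2 for siSlc25a26 without PE, 3 to 4 and 1 to 4 for siSlc25a26 under PE, and 0 to 0 and 1 to 4 for the difference. Of all 13782 to 14286 genes tested, those called ranged, in the same order, from 1420 to 1994 and 951 to 1138, 1176 to 1610 and 1346 to 1529, 1034 to 1475 and 881 to 1139, 929 to 1075 and 973 to 1099, and 220 to 326 and 301 to 646. Slc25a29 and Slc25a21 were added to those raised by PE in siNeg without siNeg.PE replicate 2, and Slc25a51 without siNeg.PE replicate 3; Slc25a51 was also added for PE in siSlc25a26 without siSlc25a26 replicate 2. Slc25a29 and Slc25a17 were lower with siSlc25a26 without siNeg replicate 3. Slc25a42 and Slc25a17 joined the lower members under PE without siNeg.PE replicate 1.

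Same-numbered replicates were not paired by the labels, and their deviations correlated at -0.0913 to 0.217. With the replicate block the counts were 2 higher and 2 lower, 1 and 5, 6 and 0, 4 and 2, and 0 and 2 in the same order, and the block changed no call of these members. On summed CPM, Slc25a4 held 32.1%, Slc25a3 29.1% and Slc25a5 8.91% of the family. The 7 members under the filter were left out of the main tests for their low counts, and without the filter no further member was called.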

Other observations

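Across the 38 members the PE effects in siNeg and in siSlc25a26, which share no library, had a Pearson r of 0.88 and the same sign in 29. Across all 13506 genes tested in both, r was 0.726 and the sign was the same in 10755. The same-sign share of the members was below that of all genes. Their r includes Slc25a34 (-1.95 and -2.88) and Slc25a42 (-0.88 and -1.65), the members with the lowest PE values with either siRNA. Its value without them was not computed. For the effects of siSlc25a26 without and under PE, r was 0.766 over the members, with the same sign in 27. Over 13508 genes r was 0.803, with the same sign in 10025. These values run across genes, which are not independent replicates, and are descriptions only.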
